A study of Mus musculus with 9 samples.

Results

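Mammalian cells read the supply of amino acids, glucose and energy largely at the surface of the lysosome, the organelle that acid alpha-glucosidase (Gaa) works in. The transcripts described here are those of 41 genes of that machinery, taken by gene symbol from the deposited table: the folliculin complex, the Rag GTPases, Ragulator, 2 amino acid sensors, mTOR and its partners, S6 kinase, the TSC complex with Rheb, GATOR1, GATOR2, 6 subunits of the AMP-activated kinase AMPK, and the MiT/TFE transcription factors. All 41 were among the 13116 genes of the table, and all 41 passed the filter on low values that left 13089 genes for testing. They were measured in quadriceps muscle of male mice aged 18 months, with 3 mice in each of 3 groups and 1 library of polyadenylated RNA per mouse. KO_secGAA mice were Gaa knockouts that at 9 months of age received, through the tail vein, the vector AAV8-sp7-delta8-hGAAco, which makes a secreted human acid alpha-glucosidase and which the study's title places in the liver. KO_PBS mice were Gaa knockouts given PBS by the same route at the same age, and WT_PBS mice were wild types that received PBS. Loss of Gaa is a model of Pompe disease, in which glycogen collects in lysosomes. Muscle was taken 9 months after injection in all groups, and the sources used here do not give the knockout allele or the promoter of the vector. The labels describe separate mice and say nothing further of litters or cages, so the p-values measure the spread between these mice.

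The libraries held 10495715 to 14406655 reads in KO_secGAA, 9299156 to 14355201 in KO_PBS and 15477523 to 15957106 in WT_PBS, counted over the genes of the table. A level below is a normalized count, the authors' read count divided by a scaled library total and multiplied by 1e6, in which 1 read was worth 0.0652 to 0.0922. Gaa itself had 15.1, 15.6 and 16.6 normalized counts in KO_secGAA and 17.8, 14.5 and 14.02 in KO_PBS, against 296, 129 and 264 in WT_PBS. Both knockout groups lay below every wild-type mouse, and the log2 difference between KO_PBS and WT_PBS was -3.77 (SE 0.26, adjusted p = 3.1e-05). The table was read for the mouse gene, so the human sequence of the vector was not analysed here. All 10 muscle markers fixed for checking the tissue label (among them Ckm, Acta1 and Mylpf) were in the table, with summed levels of 153000 to 170000 in KO_secGAA, 131000 to 148000 in KO_PBS and 172000 to 201000 in WT_PBS. These are bulk samples, in which fewer cells of a type and less RNA per cell cannot be told apart.

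As background, the kinase complex mTORC1 is drawn to the lysosome when amino acids are plentiful and then drives protein synthesis and restrains autophagy. The Rag GTPases, a heterodimer of RagA or RagB with RagC or RagD, are anchored there by Ragulator and bring mTORC1 to Rheb, its direct activator. GATOR1 switches the Rags off, GATOR2 holds GATOR1 back, and folliculin with its FNIP partners acts on RagC and RagD. TFEB, TFE3 and MITF are held in the cytoplasm by mTORC1 through the Rags. When released they enter the nucleus and bind the sequence CACGTG in the promoters of lysosomal and autophagy genes, a set called the CLEAR network. AMPK, a trimer of a catalytic alpha, a scaffold beta and a nucleotide-binding gamma subunit, senses falling energy, restrains mTORC1 and, through its beta subunit, binds glycogen.

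The E-box CACGTG named above is the same on both strands. It was looked for in the RefSeq promoter windows of the members (build GRCm38.p6, 250 bases before to 50 bases after each start). Windows were found for 38 of the 41 members, and 7 of the 38 (18.4%) held it, against 8.09% of the 27025 genes with a window. Over single windows the figures were 7 of 44 for the members and 7.15% of 32851 in all. The longer form TCACGTGA, every copy of which also holds CACGTG, was in no member's window and in 0.974% of all windows. A match is a description of letters and not of binding. The 10 sites are printed to show where these windows hold the sequence. The E-box is in capitals with 10 bases on each side, each read 5′ to 3′ on its gene's strand, and the signed number is the place of its first base relative to the start of transcription.

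Rragc, chr4:123917311-123917336, plus strand, at -112: tgattccgggCACGTGatagtaccac
Rragb, chrX:153139821-153139846, plus strand, at -127: gagcccgggcCACGTGatggcgggtg
Rragb, chrX:153139912-153139937, plus strand, at -36: agggtagcggCACGTGacaggccctg
Rragb, chrX:153139945-153139970, plus strand, at -3: ggcaggttccCACGTGatcctggcct
Lamtor1, chr7:101905759-101905784, plus strand, at -68: gccttcctatCACGTGccgcgggtcc
Lamtor4, chr5:138255352-138255377, plus strand, at -120: agaaagttaaCACGTGaacagctttt
Lamtor4, chr5:138255368-138255393, plus strand, at -104: aacagcttttCACGTGtaaaccaaac
Fnip1, chr11:54438094-54438119, plus strand, at -75: agtttgctgcCACGTGatacggctcg
Rheb, chr5:24842442-24842467, minus strand, at -96: cgcgcgcggtCACGTGggtgtgttgt
Tbc1d7, chr13:43171539-43171564, minus strand, at -53: ggttaacatcCACGTGtgggtgggac

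Among these 7 genes only Rragc passed the test by limma, between KO_PBS and WT_PBS, where 21.9% of all genes passed. The others passed in no comparison, and a link between the E-box and transcript levels was not tested. The 250 bases of Rragc upstream of the start (chr4:123917183-123917432, plus strand, 68.0% G or C, with the E-box in capitals) read as follows.

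Rragc upstream: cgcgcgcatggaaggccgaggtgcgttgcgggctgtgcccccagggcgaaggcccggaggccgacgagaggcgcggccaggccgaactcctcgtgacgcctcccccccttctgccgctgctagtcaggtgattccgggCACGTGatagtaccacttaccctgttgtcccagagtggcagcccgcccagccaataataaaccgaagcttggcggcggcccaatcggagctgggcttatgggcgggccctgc

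Most of the pathway's transcripts did not pass the test, and those that did moved in both directions. Between KO_PBS and WT_PBS, 4 members rose (Prkaa1, Rragc, Tfe3 and Seh1l) and 5 fell (Prkab2, Prkag3, Tfeb, Rps6kb1 and Akt1s1), at an adjusted p under 0.05 in limma. Those 9 are 22% of the 41, and the share called among all genes tested was 21.9%, with 10.9% higher and 11% lower, so the members were called about as often as any gene. Between KO_secGAA and KO_PBS, Prkab2 rose and Prkaa1 fell, 4.88% of the members against 3.67% of all genes (1.37% higher, 2.31% lower). Between KO_secGAA and WT_PBS, Tfeb and Rragd fell and no member rose, again 4.88% of the members, against 3.72% of all genes (1.83% higher, 1.89% lower). With edgeR no member rose in that comparison either, with DESeq2 1 did, and 5 of the 41 members had an unadjusted limma p under 0.05. In all, 10 members passed in at least 1 comparison and 31 in none. The comparisons share libraries: the mice of every group stand in a pair of them.

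The median log2 difference of the 41 was -0.02 between KO_PBS and WT_PBS, where that of all genes was 0.01, and -0.01 between KO_secGAA and KO_PBS, where that of all genes was 0. Between KO_secGAA and WT_PBS the members' median was -0.09. Regardless of sign, the members' median size of change was 0.164 between KO_PBS and WT_PBS, against 0.267 over all genes. It was 0.174 against 0.183 between KO_secGAA and KO_PBS, and 0.14 against 0.194 between KO_secGAA and WT_PBS. The 3 mice of KO_PBS lay wholly above or wholly below the 3 of WT_PBS for 18 of the 41 members and for 39.7% of all genes. The same was true of 14 members and 24% of all genes between KO_secGAA and KO_PBS, and of 11 members and 26.9% of all genes between KO_secGAA and WT_PBS. The split into higher and lower rests on the scaling factor of each library. Without scaling factors the median of all genes moved to 0.305 between KO_PBS and WT_PBS, to -0.144 between KO_secGAA and KO_PBS and to 0.155 between KO_secGAA and WT_PBS. On that scale 18 members were higher and 1 lower in KO_PBS than in WT_PBS, 0 were higher and 7 lower in KO_secGAA than in KO_PBS, and 2 were higher and 0 lower in KO_secGAA than in WT_PBS. The shares of all genes called on that scale were 38.1%, 7.33% and 7.69% in the same order.

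**Figure D1:**
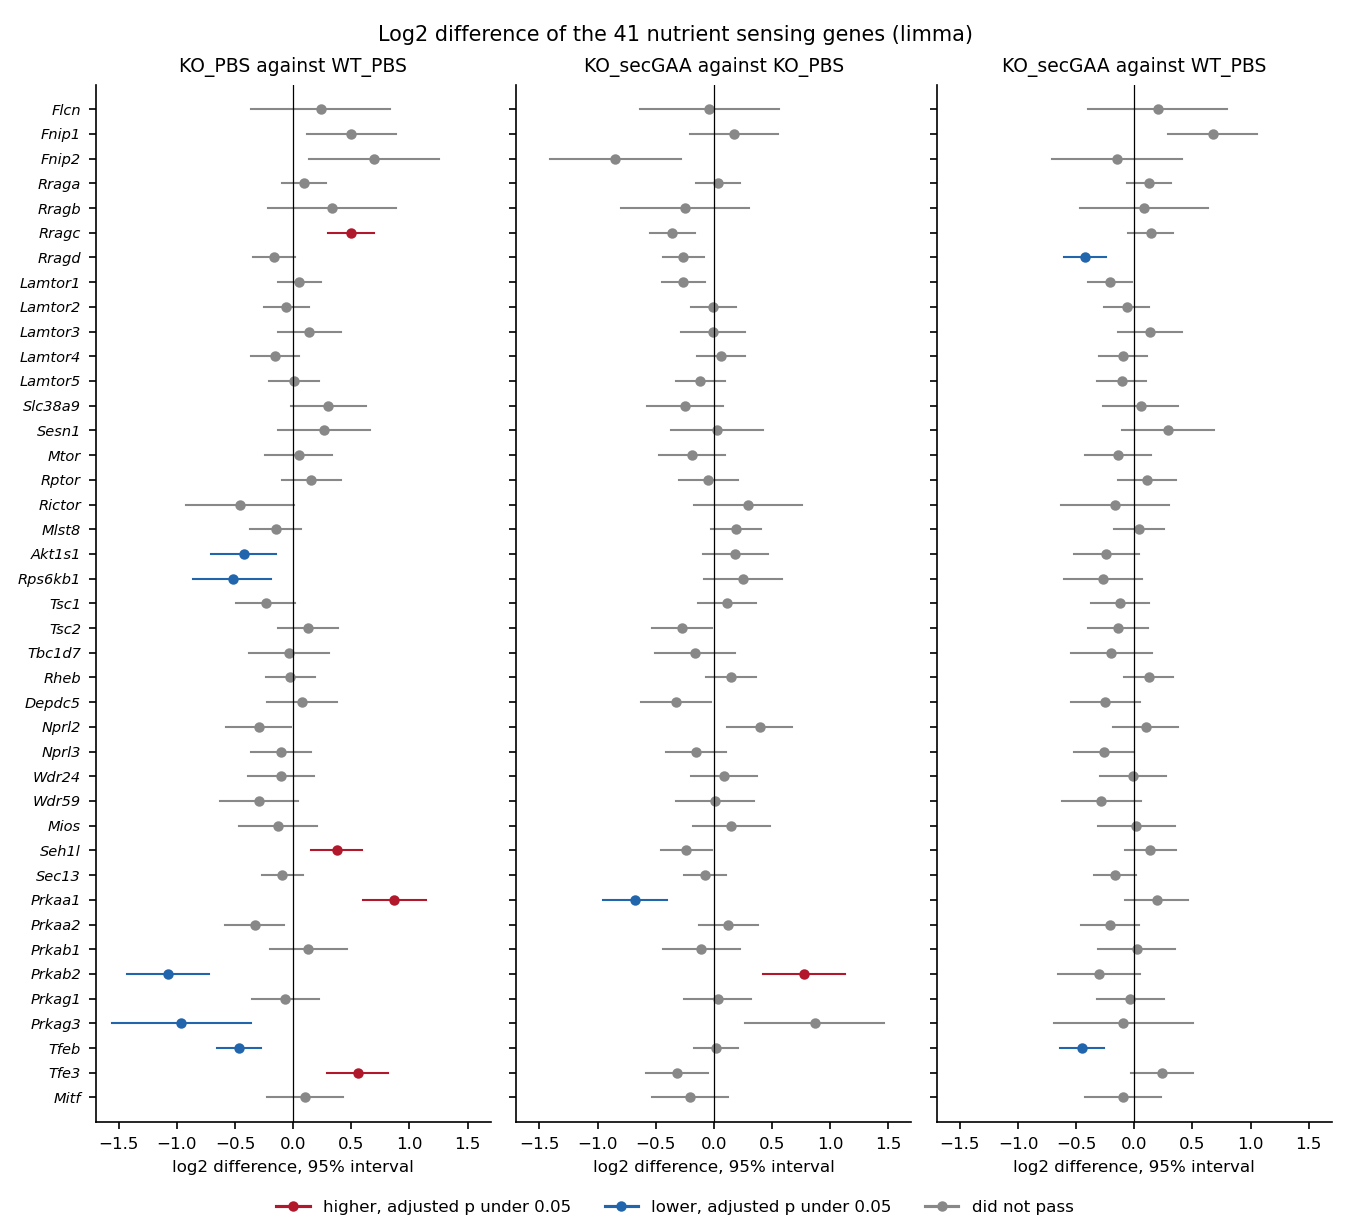
Log2 difference of each of the 41 genes (point) with its 95% interval (line) from limma, with 3 mice per group. The panels show, left to right, KO_PBS against WT_PBS, KO_secGAA against KO_PBS, and the treated knockouts against WT_PBS. Prkab2 lies lowest (-1.07) and Prkaa1 highest (0.87) in the left panel, and both lie on the other side of 0 in the middle panel.

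In KO_PBS relative to WT_PBS the AMPK subunits Prkaa1, Prkab2 and Prkag3 had the largest differences of the 41 members, Prkaa1 rising and the other two falling. Prkaa1 encodes the alpha1 catalytic subunit, the form found in most tissues (chromosome 15, bases 5143861 to 5181899, plus strand). It had 16.4, 16.7 and 16.4 normalized counts in KO_secGAA and 24.6, 29.1 and 26.5 in KO_PBS, against 12.2, 14.8 and 16.5 in WT_PBS. Every KO_PBS mouse lay above all 6 of the others, and the KO_secGAA mice overlapped the wild types. Prkaa1 was 1.83-fold higher in KO_PBS than in WT_PBS (log2 difference 0.87, SE 0.12, adjusted p = 0.00112). It was lower in KO_secGAA than in KO_PBS by a log2 difference of -0.68 (SE 0.12, adjusted p = 0.0184), and the difference between KO_secGAA and WT_PBS was 0.19 (adjusted p = 0.389). The rise held in all 18 alternatives tried. The fall lost its call without KO_secGAA mouse 2 (adjusted p = 0.0656) or 3 (0.0594) and without KO_PBS mouse 2 (0.0777) or 3 (0.0578).

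Prkab2 encodes the beta2 scaffold subunit, which carries a glycogen-binding domain and is the main beta form of skeletal muscle (chromosome 3, bases 97658193 to 97673812, plus strand). Its levels were 278, 229 and 326 normalized counts in KO_secGAA and 147, 154 and 184 in KO_PBS, against 402, 285 and 340 in WT_PBS. The KO_PBS mice were the lowest of the 9, and the other groups overlapped each other. Prkab2 fell 2.11-fold in KO_PBS relative to WT_PBS (log2 difference -1.07, SE 0.16, adjusted p = 0.00144), a call that held in all 18 alternatives. It was 1.71-fold higher in KO_secGAA than in KO_PBS (log2 difference 0.77, SE 0.16, adjusted p = 0.0325), and it differed from WT_PBS by -0.30 (adjusted p = 0.304). The rise lost its call without scaling factors (adjusted p = 0.0516), under quantile normalization (0.0508), without KO_secGAA mouse 1 (0.0751) or 3 (0.0996), without KO_PBS mouse 1 (0.0913) or 2 (0.105) and without WT_PBS mouse 3 (0.0585).

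Prkag3 encodes the gamma3 subunit, which is largely restricted to fast glycolytic muscle fibres (chromosome 1, bases 74738922 to 74749221, minus strand). It stood at 150, 98.7 and 148 normalized counts in KO_secGAA and at 45.6, 74.4 and 105 in KO_PBS, against 146, 124 and 148 in WT_PBS. All KO_PBS mice were below all WT_PBS mice, while KO_PBS mouse 3 was above KO_secGAA mouse 2. On the log2 scale the difference was -0.96 between KO_PBS and WT_PBS (SE 0.27, adjusted p = 0.0293), 0.87 between KO_secGAA and KO_PBS (adjusted p = 0.115) and -0.09 between KO_secGAA and WT_PBS (adjusted p = 0.878). The fall lost its call without scaling factors (adjusted p = 0.1), without KO_PBS mouse 1 (0.061) or 2 (0.0714) and without WT_PBS mouse 1 (0.0673), 2 (0.0506) or 3 (0.0929). With DESeq2 the difference between KO_secGAA and KO_PBS passed (0.0278).

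The other AMPK members did not pass. Prkaa2, the alpha2 catalytic subunit that predominates in muscle, averaged 138 ± 21.1 normalized counts in KO_secGAA, 126 ± 7.29 in KO_PBS and 159 ± 9.35 in WT_PBS (mean ± SD, n = 3 here and below). Its KO_PBS and WT_PBS mice did not overlap, and the log2 difference was -0.33 (adjusted p = 0.0624). Prkab1, the beta1 scaffold, averaged 8.54 ± 0.374, 9.35 ± 1.83 and 8.44 ± 0.797 normalized counts in KO_secGAA, KO_PBS and WT_PBS. Prkag1, the widely expressed gamma1 subunit, averaged 49.5 ± 4.19, 48.6 ± 6.76 and 50.9 ± 6.1 in the same order. Exons of the antisense gene B130046B21Rik cover 44.2% of the exon bases of Prkag1, and without a stated strand their reads cannot be told apart. In the deposited values B130046B21Rik averaged 0.928 normalized counts over all libraries, against 49.7 for Prkag1.

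Prkag2, the gamma2 subunit prominent in heart, is not among the 41 but belongs to the same trimer and completed the gamma set fixed for this comparison. It had 15.5, 15.95 and 18.1 normalized counts in KO_secGAA and 32.5, 29.3 and 30.02 in KO_PBS, against 13.4, 10.4 and 12.03 in WT_PBS. The KO_PBS mice were the highest and the WT_PBS mice the lowest, with no overlap among the 3 groups. The log2 difference was 1.33 between KO_PBS and WT_PBS (SE 0.12, adjusted p = 8.36e-05) and -0.87 between KO_secGAA and KO_PBS (SE 0.12, adjusted p = 0.00497). Both calls held in all 18 alternatives. Between KO_secGAA and WT_PBS it was 0.45 (adjusted p = 0.0608), which passed without scaling factors (0.0173), with DESeq2 (0.0488) and without WT_PBS mouse 1 (0.0457).

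**Figure D2:**
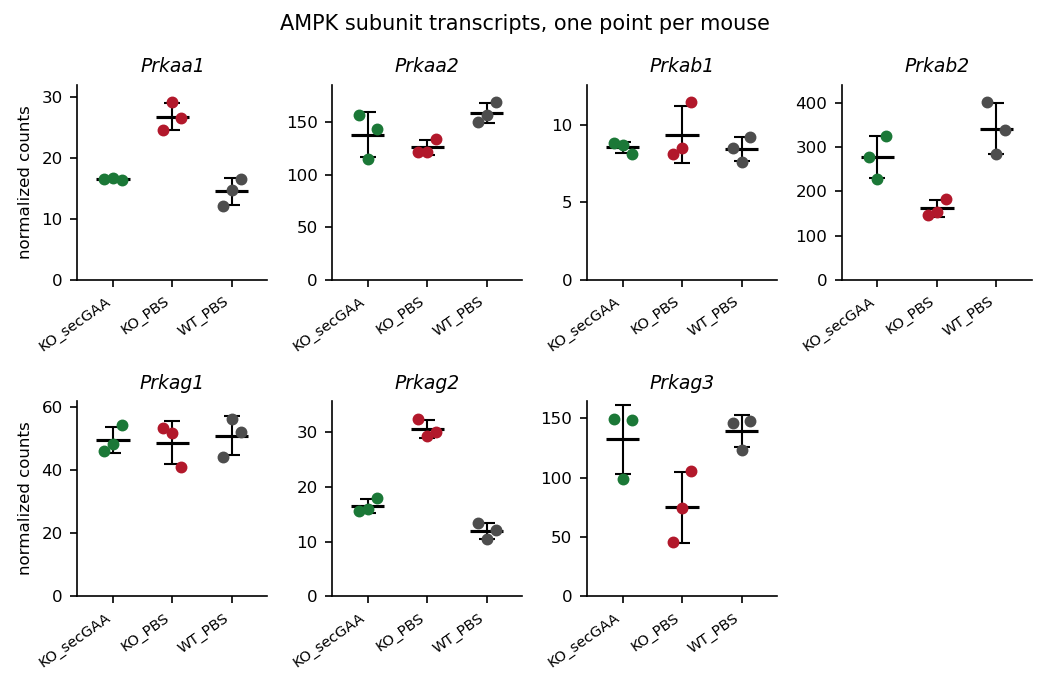
Normalized counts of 7 AMPK subunit transcripts in each mouse (points) of KO_secGAA, KO_PBS and WT_PBS, with the group mean (thick line) and SD (error bar), on axes that start at 0. Prkaa1 and Prkag2 are highest in the 3 KO_PBS mice, and Prkab2 is lowest in them.

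Set against each other per kilobase of exon, the subunits that predominate in muscle made up a smaller share of their sets in KO_PBS. Prkaa1 held 17.2 ± 2.39% of the alpha transcripts in KO_secGAA, 26.7 ± 2.06% in KO_PBS and 13.5 ± 1.14% in WT_PBS, with Prkaa2 holding the rest. Prkab1 held 6.86 ± 1.33%, 11.9 ± 0.754% and 5.53 ± 0.711% of the beta transcripts in the same order, the larger share in KO_PBS going with a lower Prkab2. Of the gamma transcripts Prkag2 held 5.96 ± 0.666%, 13.5 ± 1.8% and 4.19 ± 0.558%, and Prkag3 held 51.7 ± 5.78%, 35.6 ± 11.9% and 53.7 ± 4.54%. The shares of Prkaa1, Prkab1 and Prkag2 in the KO_PBS mice were above those in all 6 others. A share is a ratio within a library and does not depend on its scaling factor. No test was made of the shares.

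**Figure D3:**
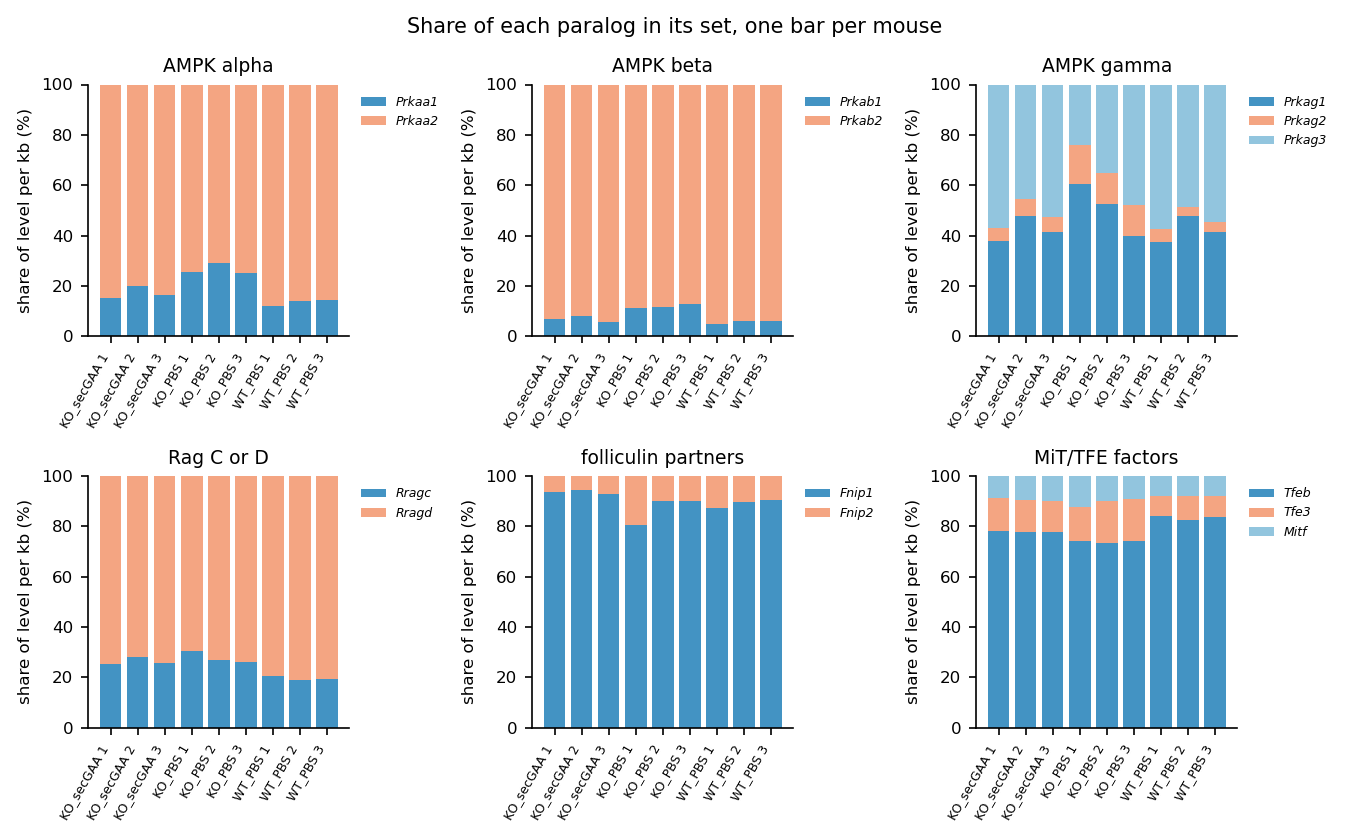
Share (%) of each paralog in its set, from normalized counts per kilobase of exon, with 1 bar per mouse of KO_secGAA, KO_PBS and WT_PBS. Prkaa1 fills 25.3 to 29.1% of the alpha bars in KO_PBS mice and 12.2 to 14.3% in WT_PBS mice, and Tfeb fills 73.4 to 74.3% and 82.7 to 84.2% of the MiT/TFE bars.

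Fibre type markers also differed between KO_PBS and WT_PBS. The summed level of 12 fast fibre markers, with every marker in the table and none at 0 reads, was 142100, 142500 and 160300 normalized counts in KO_secGAA and 121600, 112000 and 113700 in KO_PBS, against 187200, 148200 and 170100 in WT_PBS. Of the 12, 7 fell in KO_PBS relative to WT_PBS (58.3%, against 11% of all genes) and none rose, among them Casq1, the calcium buffer of fast fibres (log2 difference -1.06, adjusted p = 0.000462). The 10 slow fibre markers summed to 587.7, 322 and 1126 in KO_secGAA and 2622, 816.7 and 624.9 in KO_PBS, against 76.7, 539 and 180.1 in WT_PBS, and 7 of the 10 rose in KO_PBS relative to WT_PBS (70%, against 10.9% of all genes). Between KO_secGAA and KO_PBS, 1 fast fibre marker rose by limma (Casq1, 8.33% of the 12, against 1.37% of all genes), and no slow fibre marker passed. There 5 fast and 1 slow fibre markers had an unadjusted p under 0.05. The part of these markers in the AMPK differences was not tested.

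The Rag GTPases gave a rise of Rragc in KO_PBS and a low level of Rragd in KO_secGAA. Rragc, which encodes RagC (chromosome 4, bases 123917446 to 123936997, plus strand), is the gene whose E-box and upstream sequence are printed above. It had 28.9, 32.6 and 32.0 normalized counts in KO_secGAA and 42.7, 39.4 and 38.2 in KO_PBS, against 28.4, 27.2 and 29.1 in WT_PBS. The 3 KO_PBS mice were the highest of the 9, and KO_secGAA mouse 1 lay within the wild-type range. Rragc was 1.41-fold higher in KO_PBS than in WT_PBS (log2 difference 0.50, SE 0.09, adjusted p = 0.00343), which held in all 18 alternatives. Between KO_secGAA and KO_PBS the log2 difference was -0.36 (SE 0.09, adjusted p = 0.0539), which passed without scaling factors (0.00725), under quantile normalization (0.0468) and with DESeq2 (0.0386). Between KO_secGAA and WT_PBS it was 0.14 (adjusted p = 0.388), and it passed there without scaling factors (0.0492). Exons of 4930535I16Rik on the other strand share 264 bases with those of Rragc, 10.2% of its exon length.

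Rragd, which encodes RagD, the partner of the same position in the heterodimer, was the more abundant of the pair (chromosome 4, bases 32983037 to 33022180, plus strand). It had 169, 166 and 184 normalized counts in KO_secGAA and 193, 212 and 216 in KO_PBS, against 221, 233 and 243 in WT_PBS. The 3 groups did not overlap, with KO_secGAA lowest and WT_PBS highest. Its log2 difference was -0.43 between KO_secGAA and WT_PBS (SE 0.08, adjusted p = 0.022), -0.26 between KO_secGAA and KO_PBS (adjusted p = 0.115) and -0.16 between KO_PBS and WT_PBS (adjusted p = 0.177, turning to 0.15 without scaling factors). The fall relative to WT_PBS lost its call without scaling factors (adjusted p = 0.0813), without KO_secGAA mouse 1 (0.0749) or 2 (0.0949) and without WT_PBS mouse 2 (0.0653) or 3 (0.107). Between KO_secGAA and KO_PBS it passed without scaling factors (0.0184). Per kilobase, Rragc held 26.5 ± 1.43% of the pair in KO_secGAA, 27.9 ± 2.39% in KO_PBS and 19.5 ± 0.775% in WT_PBS, and the 6 knockout mice (25.5 to 30.6%) lay above the 3 wild types (18.9 to 20.4%).

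RagA and RagB take the other position. Rraga averaged 50.3 ± 3.59 normalized counts in KO_secGAA, 49.0 ± 3.2 in KO_PBS and 46.0 ± 0.749 in WT_PBS, and held 96.2 to 97% of the pair per kilobase as group means. Rragb, whose window carries 3 E-boxes, was the least abundant member with 18 to 49 reads per library and averaged 2.18 ± 0.621, 2.69 ± 0.736 and 2.0 ± 0.256 normalized counts in the same order. Neither passed in any comparison.

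Ragulator, the scaffold of 5 Lamtor proteins that holds the Rags on the lysosome, showed no called member by limma, and an unadjusted p under 0.05 for 0, 1 and 1 of the 5 in the 3 comparisons, in the order given above. Lamtor1, the lipid-anchored subunit, averaged 84.6 ± 3.82 normalized counts in KO_secGAA, 102 ± 6.68 in KO_PBS and 98.0 ± 6.23 in WT_PBS. The KO_secGAA mice lay below all 6 others, with log2 differences of -0.26 from KO_PBS (adjusted p = 0.126) and -0.21 from WT_PBS (adjusted p = 0.183). Lamtor2 averaged 43.7 ± 3.25, 43.8 ± 2.26 and 45.6 ± 1.85 in KO_secGAA, KO_PBS and WT_PBS. Lamtor3 averaged 36.8 ± 3.84, 37.0 ± 5.06 and 33.4 ± 2.45. For Lamtor4 the levels were 38.0 ± 0.94, 36.4 ± 2.64 and 40.8 ± 3.56, and for Lamtor5 they were 34.8 ± 3.48, 37.7 ± 1.02 and 37.5 ± 2.37. Over the 5 the log2 differences between KO_PBS and WT_PBS ran between -0.16 and 0.14, and their 95% intervals between -0.37 and 0.41.

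Folliculin and its partners did not pass in any comparison. Flcn, the GTPase-activating protein for RagC and RagD, had 47.2, 61.8 and 94.6 normalized counts in KO_secGAA and 96.4, 54.9 and 56.3 in KO_PBS, against 50.01, 55.3 and 65.4 in WT_PBS. KO_secGAA mouse 3 and KO_PBS mouse 1 were high, and the groups overlapped in every comparison. Fnip1, a scaffold of folliculin, had 64.8, 68.6 and 75.0 in KO_secGAA and 56.3, 70.3 and 58.6 in KO_PBS, against 32.0, 48.2 and 52.5 in WT_PBS, all 6 knockout mice being above the 3 wild types. Its log2 difference was 0.67 between KO_secGAA and WT_PBS (SE 0.17, adjusted p = 0.0597) and 0.50 between KO_PBS and WT_PBS (SE 0.17, adjusted p = 0.0627), neither of which passed. Fnip2, the less abundant partner, had 5.21, 4.59 and 6.88 in KO_secGAA and 15.8, 8.94 and 7.58 in KO_PBS, against 5.45, 6.57 and 6.48 in WT_PBS. The KO_PBS mice lay above all others and mouse 1 far above. The log2 difference was 0.70 between KO_PBS and WT_PBS (adjusted p = 0.0755) and -0.85 between KO_secGAA and KO_PBS (adjusted p = 0.103).

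The amino acid sensors among the members gave no call. Slc38a9, an arginine-sensing carrier of the lysosomal membrane, averaged 8.33 ± 1.12 normalized counts in KO_secGAA, 9.93 ± 0.445 in KO_PBS and 8.01 ± 1.24 in WT_PBS. Sesn1, a leucine-binding sestrin that acts on GATOR2, averaged 40.7 ± 5.65, 40.4 ± 9.39 and 33.3 ± 5.45 in the same order. The KO_PBS mice were above all others for Slc38a9, with a log2 difference of 0.30 from WT_PBS (adjusted p = 0.167).

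Of the mTOR complexes, the inhibitor Akt1s1 (PRAS40, a raptor-binding substrate of Akt) was the member that fell. It had 137, 151 and 177 normalized counts in KO_secGAA and 149, 131 and 128 in KO_PBS, against 157, 202 and 191 in WT_PBS. The KO_PBS mice were below all wild types, and the KO_secGAA mice overlapped both other groups. Akt1s1 gave a log2 difference of -0.43 between KO_PBS and WT_PBS (SE 0.12, adjusted p = 0.035), 0.19 between KO_secGAA and KO_PBS (adjusted p = 0.467) and -0.24 between KO_secGAA and WT_PBS (adjusted p = 0.296). The fall lost its call without scaling factors (adjusted p = 0.42), without KO_secGAA mouse 2 (0.0503), without KO_PBS mouse 2 (0.105) or 3 (0.103) and without WT_PBS mouse 2 (0.113) or 3 (0.116). Akt1s1 lies on chromosome 7 (bases 44848991 to 44855421, plus strand), where exons of Tbc1d17 on the other strand share 85 bases with it.

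The kinase and its other partners did not pass. Mtor averaged 33.8 ± 1.98 normalized counts in KO_secGAA, 38.9 ± 6.61 in KO_PBS and 37.4 ± 3.62 in WT_PBS. Rptor, the raptor subunit of mTORC1, averaged 30.4 ± 2.91, 31.5 ± 3.74 and 28.1 ± 1.55 in that order. Rictor, the defining subunit of mTORC2, averaged 16.7 ± 5.78, 13.1 ± 0.767 and 18.2 ± 2.28, its KO_PBS mice being below all wild types (log2 difference -0.46, adjusted p = 0.144). Mlst8, shared by both complexes, averaged 17.2 ± 0.941, 14.96 ± 0.254 and 16.7 ± 1.28, and 25.6% of its exon bases are shared with Bricd5 on the other strand.

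Rps6kb1, which encodes the S6 kinase that mTORC1 phosphorylates, fell in KO_PBS. It had 26.1, 26.5 and 26.1 normalized counts in KO_secGAA and 24.6, 17.1 and 25.2 in KO_PBS, against 32.7, 27.8 and 35.2 in WT_PBS. The groups did not overlap: KO_PBS was lowest, with mouse 2 lower still, and WT_PBS highest. Rps6kb1 gave a log2 difference of -0.52 between KO_PBS and WT_PBS (SE 0.15, adjusted p = 0.0331), 0.25 between KO_secGAA and KO_PBS (adjusted p = 0.41) and -0.27 between KO_secGAA and WT_PBS (adjusted p = 0.329). The fall lost its call without scaling factors (adjusted p = 0.301), when only the 6 libraries compared were fitted (0.0647), without KO_PBS mouse 2 (0.0835) and without WT_PBS mouse 1 (0.0766) or 3 (0.121). Its locus is on chromosome 11 (bases 86498871 to 86544805, minus strand), and 155 bases of its exons are shared with Rnft1 on the other strand.

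The TSC complex, the brake on Rheb, and Rheb itself showed no called member. Tsc1, the stabilizing subunit, averaged 31.4 ± 1.76 normalized counts in KO_secGAA, 29.1 ± 3.94 in KO_PBS and 34.3 ± 2.42 in WT_PBS. Tsc2, the GTPase-activating subunit, averaged 69.7 ± 7.3, 84.5 ± 12.6 and 76.8 ± 1.09, and 693 bases of its exons are shared with Pkd1 on the other strand. Tbc1d7, the small subunit, averaged 11.7 ± 1.34, 13.2 ± 2.96 and 13.4 ± 0.478, and Rheb averaged 103 ± 5.19, 93.0 ± 9.09 and 94.4 ± 6.91. The log2 differences of the 4 between KO_PBS and WT_PBS ran between -0.24 and 0.13, with 95% intervals between -0.49 and 0.39.

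GATOR1, the complex that switches RagA and RagB off, gave no call. Depdc5, its Rag-binding subunit, averaged 8.11 ± 0.712 normalized counts in KO_secGAA, 10.3 ± 1.38 in KO_PBS and 9.74 ± 0.843 in WT_PBS. Nprl2, the catalytic subunit, averaged 15.5 ± 1.51, 11.7 ± 1.46 and 14.5 ± 0.979, its KO_PBS mice being below all 6 others (log2 difference -0.30 from WT_PBS, adjusted p = 0.12, and 0.40 between KO_secGAA and KO_PBS, adjusted p = 0.125). Nprl3 averaged 15 ± 1.99, 16.6 ± 0.314 and 18.0 ± 1.2, and 25.8% of its exon bases are shared with Mpg on the other strand.

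In GATOR2, the complex that restrains GATOR1, Seh1l rose in KO_PBS. Seh1l, which also serves in the nuclear pore, had 25.8, 21.6 and 24.8 normalized counts in KO_secGAA and 27.4, 29.8 and 27.99 in KO_PBS, against 20.5, 21.8 and 23.1 in WT_PBS. The KO_PBS mice were the highest of the 9, while the other groups overlapped. For Seh1l the log2 difference was 0.38 between KO_PBS and WT_PBS (SE 0.10, adjusted p = 0.0229), -0.24 between KO_secGAA and KO_PBS (adjusted p = 0.224) and 0.14 between KO_secGAA and WT_PBS (adjusted p = 0.452). The rise lost its call without KO_PBS mouse 2 (adjusted p = 0.0809) or 3 (0.0513) and without WT_PBS mouse 1 (0.0652) or 2 (0.0595). The difference between KO_secGAA and KO_PBS passed without scaling factors (0.0484).

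The other GATOR2 subunits did not pass. Wdr24 averaged 16.8 ± 0.95 normalized counts in KO_secGAA, 15.8 ± 1.64 in KO_PBS and 17.1 ± 2.43 in WT_PBS. Wdr59 averaged 11.05 ± 1.32, 11.05 ± 2.17 and 13.5 ± 0.739, and Mios averaged 13.3 ± 2.13, 11.9 ± 1.42 and 13.1 ± 1.48. Sec13, shared with the COPII coat and the nuclear pore, averaged 44.0 ± 1.64, 46.4 ± 1.42 and 49.5 ± 3.06.

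Of the MiT/TFE factors, the transcriptional output of the pathway, Tfeb fell and Tfe3 rose in KO_PBS relative to WT_PBS, and Mitf did not pass. Tfeb was the most abundant of them (chromosome 17, bases 47737030 to 47792419, plus strand). It had 72.8, 77.4 and 77.5 normalized counts in KO_secGAA and 76.3, 78.8 and 70.0 in KO_PBS, against 108, 94.5 and 109 in WT_PBS. All 6 knockout mice lay below all 3 wild types, and the knockout groups overlapped each other. Tfeb was 1.38-fold lower in KO_PBS than in WT_PBS (log2 difference -0.47, SE 0.09, adjusted p = 0.00438) and 1.36-fold lower in KO_secGAA than in WT_PBS (-0.45, SE 0.09, adjusted p = 0.0227). Between KO_secGAA and KO_PBS the difference was 0.02, with a 95% interval between -0.17 and 0.21 (adjusted p = 0.936). The fall in KO_PBS lost its call only without scaling factors (adjusted p = 0.153) among the 18 alternatives. The fall in KO_secGAA lost its call without scaling factors (0.0544), without KO_secGAA mouse 1 (0.0789) or 2 (0.0749) and without WT_PBS mouse 1 (0.0519) or 3 (0.108).

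Tfe3, the X-linked factor with overlapping targets (chromosome X, bases 7762560 to 7775202, plus strand), had 11.1, 11.6 and 11.1 normalized counts in KO_secGAA and 12.4, 16.3 and 13.9 in KO_PBS, against 9.01, 9.66 and 9.73 in WT_PBS. The 3 groups did not overlap, KO_PBS being highest and WT_PBS lowest. Tfe3 rose 1.47-fold in KO_PBS relative to WT_PBS (log2 difference 0.55, SE 0.12, adjusted p = 0.00933), which held in all 18 alternatives. The log2 difference was -0.32 between KO_secGAA and KO_PBS (adjusted p = 0.185) and 0.24 between KO_secGAA and WT_PBS (adjusted p = 0.281). Mitf, best known from pigment cells, averaged 12.1 ± 1.15, 14.1 ± 2.67 and 13.0 ± 0.918 in KO_secGAA, KO_PBS and WT_PBS (log2 difference 0.10 between KO_PBS and WT_PBS, adjusted p = 0.652). Per kilobase Tfeb held 77.8 ± 0.173% of the 3 factors in KO_secGAA, 74.0 ± 0.513% in KO_PBS and 83.6 ± 0.792% in WT_PBS, and Tfe3 held 12.8 ± 0.45%, 15.5 ± 1.86% and 8.49 ± 0.82%. For both factors the shares in the 6 knockout mice did not overlap those in the wild types.

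**Figure D4:**
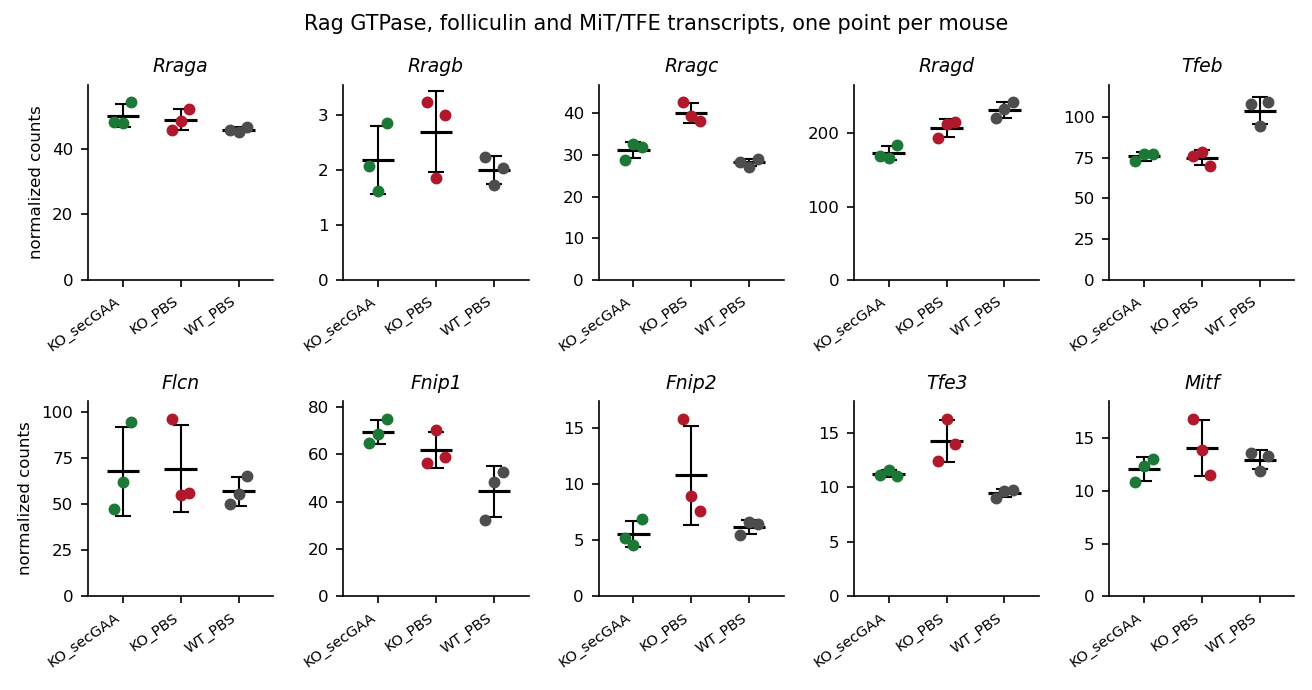
Normalized counts of the Rag GTPase, folliculin complex and MiT/TFE transcripts in each mouse (points) of KO_secGAA, KO_PBS and WT_PBS, with the group mean (thick line) and SD (error bar), on axes that start at 0. Tfeb lies at 70.0 to 78.8 in the 6 knockout mice and at 94.5 to 109 in the wild types, and Rragc is highest in the 3 KO_PBS mice.

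Some markers of macrophages and of other cell types also differed between these groups. All 15 macrophage markers were in the table with none at 0 reads. Their summed level was 236, 311.7 and 149.8 normalized counts in KO_secGAA and 258.1, 380.2 and 327.7 in KO_PBS, against 165.9, 178.1 and 107 in WT_PBS. Of the 15, 4 rose in KO_PBS relative to WT_PBS (26.7%, against 10.9% of all genes), among them Cd68, a lysosomal membrane protein of macrophages (log2 difference 1.94, adjusted p = 0.000383). The 7 markers of satellite cells and regenerating fibres summed to 76.2 to 101 in KO_secGAA and 105 to 180 in KO_PBS, against 41.9 to 78.3 in WT_PBS, and 3 of the 7 rose in KO_PBS relative to WT_PBS (42.9%). The 7 endothelial markers summed to 149 to 183 in KO_secGAA and 113 to 135 in KO_PBS, against 156 to 190 in WT_PBS, and Esam, Flt1 and Pecam1 fell in KO_PBS relative to WT_PBS (42.9%, against 11% of all genes). The 7 fibroblast markers summed to 485 to 588 in KO_secGAA and 551 to 888 in KO_PBS, against 503 to 590 in WT_PBS. Lum, a matrix proteoglycan, was the 1 fibroblast marker of the 7 that rose in KO_PBS relative to WT_PBS (14.3%, against 10.9% of all genes). Its log2 difference was 1.56 (adjusted p = 0.000331), and those of the markers that did not pass ran between -0.30 and 0.47. Lum and Col1a2 fell in KO_secGAA relative to KO_PBS (28.6%, against 2.31% of all genes). The part of these markers in the changes of the AMPK subunits and their shares, Tfeb, Tfe3, Rragc and the target genes below was not tested.

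The targets of the MiT/TFE factors, a list of CLEAR genes of lysosomes and autophagy, had 33 members tested. Like the members and the other lists, this list was chosen with earlier results of these data known, and its share of called genes was not tested. In KO_PBS relative to WT_PBS, 13 of the 33 rose (39.4%, against 10.9% of all genes) and none fell, and the list's median log2 difference was 0.23, where all genes had 0.01. Hexa, a subunit of the lysosomal beta-hexosaminidase, had 80.7, 90.9 and 82.1 normalized counts in KO_secGAA and 170, 194 and 140 in KO_PBS, against 64.4, 60.8 and 56.6 in WT_PBS. Its groups did not overlap. The log2 difference of Hexa was 1.45 between KO_PBS and WT_PBS (adjusted p = 6.03e-05) and -0.97 between KO_secGAA and KO_PBS (adjusted p = 0.00416). Atp6v1h and Atp6v1a, subunits of the proton pump that acidifies the lysosome, rose in KO_PBS by 1.42 and 1.13 on the log2 scale (adjusted p = 5.4e-05 and 0.000708). Sqstm1, the autophagy receptor p62, averaged 911 ± 71.9 in KO_secGAA, 1331 ± 141 in KO_PBS and 663 ± 121 in WT_PBS, with a log2 difference of 1.01 between KO_PBS and WT_PBS (adjusted p = 0.001). These 4 rises held in all 18 alternatives.

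In KO_secGAA relative to KO_PBS, 5 of the 33 target genes fell (Hexa, Lamp1, Atp6v1a, Atp6v1h and Gabarap; 15.2%, against 2.31% of all genes) and none rose, with a median of -0.29, where all genes had 0. The falls of Atp6v1a (log2 difference -0.74, adjusted p = 0.0267) and Atp6v1h (-0.53, adjusted p = 0.036) were lost without several single libraries, with adjusted p up to 0.0906 and 0.121. For Atp6v1a these were KO_secGAA mice 1 and 2 and each KO_PBS mouse. For Atp6v1h they were KO_secGAA mice 1 and 3, KO_PBS mice 1 and 2 and WT_PBS mice 2 and 3, and the call was also lost in a fit of only the 2 groups (0.0726). Between KO_secGAA and WT_PBS, Atp6v1h was the target gene that passed (log2 difference 0.88, adjusted p = 0.00428), and the list's median was 0.02.

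Lists of the wider pathway were read in the same way, against the 21.9% of all genes called between KO_PBS and WT_PBS. They too were chosen with earlier results of these data known, and their shares were not tested. Of 16 calcineurin genes and other MiT/TFE regulators, 3 rose and 4 fell in KO_PBS relative to WT_PBS (median -0.03), and by limma none passed between KO_secGAA and KO_PBS, where 4 had an unadjusted p under 0.05. Calcineurin is the phosphatase that releases TFEB to the nucleus. Its catalytic subunit Ppp3cb averaged 257 ± 34.2 normalized counts in KO_secGAA and 197 ± 10.7 in KO_PBS, against 302 ± 13 in WT_PBS (log2 difference -0.61 between KO_PBS and WT_PBS, adjusted p = 0.00255). Its regulatory subunit Ppp3r1 fell by 0.40 on the log2 scale (adjusted p = 0.00362), a call lost without scaling factors (0.375). Of the 14-3-3 proteins, which hold TFEB in the cytoplasm, Ywhaz (0.69, adjusted p = 0.00225) and Ywhah (0.37, adjusted p = 0.0108) rose. Ywhae (-0.30, adjusted p = 0.0611), Ywhab (0.14), Ywhag (0.06) and Ywhaq (0.16) did not pass.

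Of 11 amino acid carriers, 5 rose in KO_PBS relative to WT_PBS (45.5%, against 10.9% of all genes) and none fell, with a median of 0.45. Slc7a5, the light chain of the leucine carrier LAT1, averaged 11.6 ± 4.94 normalized counts in KO_secGAA and 16.1 ± 8.25 in KO_PBS, against 3.07 ± 1.89 in WT_PBS (log2 difference 2.21 between KO_PBS and WT_PBS, adjusted p = 0.00894, held in all 18 alternatives). Its heavy chain Slc3a2 rose by 0.63 on the log2 scale (adjusted p = 0.0195), the cystine exporter Ctns by 0.63 (adjusted p = 0.0229) and the glutamine exporter Slc38a7 by 0.45 (adjusted p = 0.0256). Without KO_PBS mouse 3 or WT_PBS mouse 2 each of these last calls was lost. The Slc3a2 and Ctns calls were also lost without KO_PBS mouse 1 or WT_PBS mouse 3, and that of Slc38a7 without KO_PBS mouse 2, with adjusted p up to 0.0773, 0.0769 and 0.0914 for Slc3a2, Ctns and Slc38a7. That of Ctns was also lost under quantile normalization (0.0567) and that of Slc38a7 with DESeq2 (0.0556). No carrier passed between KO_secGAA and KO_PBS or between KO_secGAA and WT_PBS by limma, where 1 and 2 had an unadjusted p under 0.05.

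Among 17 mTORC1 substrates and translation genes, 2 rose and 3 fell in KO_PBS relative to WT_PBS (median -0.14), and by limma none passed between KO_secGAA and KO_PBS, where 3 had an unadjusted p under 0.05. Eif4ebp1, a repressor of translation, averaged 97.4 ± 10.9 normalized counts in KO_secGAA and 154 ± 32.1 in KO_PBS, against 53.7 ± 19.3 in WT_PBS (log2 difference 1.55 between KO_PBS and WT_PBS, adjusted p = 0.00203). Its more abundant paralog Eif4ebp2 averaged 219.7 ± 17, 229 ± 12.4 and 253.2 ± 27.9 in the same order. Eif4ebp2 did not pass (log2 difference -0.14 between KO_PBS and WT_PBS, adjusted p = 0.349). The autophagy kinases Ulk1 and Ulk2 were lower in KO_PBS than in WT_PBS, with log2 differences of -0.72 (adjusted p = 0.00299) and -0.45 (adjusted p = 0.00182). The call of Ulk2 was lost without scaling factors (0.131), and those of Eif4ebp1 and Ulk1 held in all 18 alternatives. Grb10, a growth factor receptor adaptor that mTORC1 stabilizes, averaged 22.6 ± 3.09 in KO_secGAA and 24.8 ± 5.89 in KO_PBS, against 15.3 ± 2.97 in WT_PBS. Its log2 difference between KO_PBS and WT_PBS was 0.66 (adjusted p = 0.0369), lost in a fit of only the 2 groups (0.0578) and without KO_secGAA mouse 3, KO_PBS mouse 1 or 3 and WT_PBS mouse 2 or 3 (up to 0.127).

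Of 14 growth factor and stress inputs to TSC, Akt1 was the gene that rose in KO_PBS relative to WT_PBS, and none fell (median -0.10). Akt1, a kinase that inactivates TSC2 and phosphorylates PRAS40, had 47.1, 55.5 and 50.5 normalized counts in KO_secGAA and 95.9, 83.6 and 74.5 in KO_PBS, against 44.4, 47.6 and 45.1 in WT_PBS. The KO_PBS mice were well above all 6 others. The log2 difference was 0.88 between KO_PBS and WT_PBS (adjusted p = 0.000518) and -0.72 between KO_secGAA and KO_PBS (adjusted p = 0.00758), and both calls held in all 18 alternatives. Akt2, the more abundant Akt gene of the list, averaged 246.9 ± 27 in KO_secGAA, 253.6 ± 1.25 in KO_PBS and 283 ± 8.08 in WT_PBS. Akt2 passed in no comparison by limma (log2 difference -0.16 between KO_PBS and WT_PBS, adjusted p = 0.228). Ddit4l, a stress-induced inhibitor of mTORC1 signalling chosen after its values were seen, averaged 306 ± 19.1 in KO_secGAA and 162 ± 21.9 in KO_PBS, against 209 ± 25.5 in WT_PBS. It rose in KO_secGAA relative to KO_PBS (0.92, adjusted p = 0.00497) and to WT_PBS (0.56, adjusted p = 0.0384). How these calls of Ddit4l fare in the alternatives is not reported here. Of the list, 14.3% passed between KO_secGAA and KO_PBS, against 3.67% of all genes. Between KO_secGAA and WT_PBS 7.14% passed, against 3.72% of all genes.

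Of 16 AMPK kinases and targets, 2 fell and none rose in KO_PBS relative to WT_PBS (median -0.17). Acaca, an acetyl-CoA carboxylase that AMPK inhibits, averaged 13.4 ± 3.59 normalized counts in KO_secGAA and 13.2 ± 1.89 in KO_PBS, against 29.9 ± 11.6 in WT_PBS (log2 difference -1.09 between KO_PBS and WT_PBS, adjusted p = 0.0199). Acacb, the more abundant carboxylase of the list, averaged 202.6 ± 16.6, 211.5 ± 54.2 and 250.4 ± 11.6 in the same order. Acacb passed in no comparison by limma (log2 difference -0.27 between KO_PBS and WT_PBS, adjusted p = 0.237). Cab39l, a scaffold of the kinase LKB1, fell by 0.48 (adjusted p = 0.022). The call of Acaca was lost without scaling factors, without KO_PBS mouse 2 or 3 and without WT_PBS mouse 2 (adjusted p up to 0.0685). That of Cab39l was lost without scaling factors (0.33), without KO_PBS mouse 1 and without WT_PBS mouse 2 or 3 (up to 0.078). The 6 fat cell markers (among them Adipoq and Plin1) summed to 333 to 947 in KO_secGAA and 217 to 438 in KO_PBS, against 320 to 1420 in WT_PBS, and their part in the difference of Acaca was not tested. Hdac5, a histone deacetylase that AMPK phosphorylates and which was chosen after its values were seen, averaged 95.9 ± 2.3 in KO_secGAA, 69.0 ± 2.69 in KO_PBS and 79.8 ± 1.59 in WT_PBS (log2 difference 0.47 between KO_secGAA and KO_PBS, adjusted p = 0.00778). How this call fares in the alternatives is not reported here. Between KO_secGAA and KO_PBS 6.25% of the list passed, against 3.67% of all genes.

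The remaining lists were small. Of 8 further sensors and GATOR partners, Kptn, a subunit of the KICSTOR complex that holds GATOR1 at the lysosome, fell in KO_PBS relative to WT_PBS (log2 difference -0.81, adjusted p = 0.00147, held in all 18 alternatives). It had 12.9, 10.9 and 12.5 normalized counts in KO_secGAA and 8.51, 7.53 and 8.50 in KO_PBS, against 15.7, 13.2 and 15.1 in WT_PBS. The groups did not overlap, and KO_PBS was lowest. Its rise in KO_secGAA relative to KO_PBS (0.53, adjusted p = 0.0409) was lost in 11 of 18 alternatives, among them the omission of any KO_secGAA or KO_PBS mouse and of WT_PBS mouse 2 or 3 (adjusted p up to 0.132). Of 8 mTOR partners, Tti1, a chaperone subunit for mTOR-family kinases, fell by 0.58 (adjusted p = 0.0141) and Deptor, an inhibitor of mTOR, fell by 0.49 (adjusted p = 0.0448) in KO_PBS relative to WT_PBS (median -0.21). The call of Tti1 was lost without scaling factors (0.208) and without KO_PBS mouse 2 (0.0522). That of Deptor was lost in 7 of 18 alternatives: without scaling factors (0.304), without KO_secGAA mouse 1 or 2, KO_PBS mouse 2 or 3 and WT_PBS mouse 1 or 3 (up to 0.156).

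**Figure D5:**
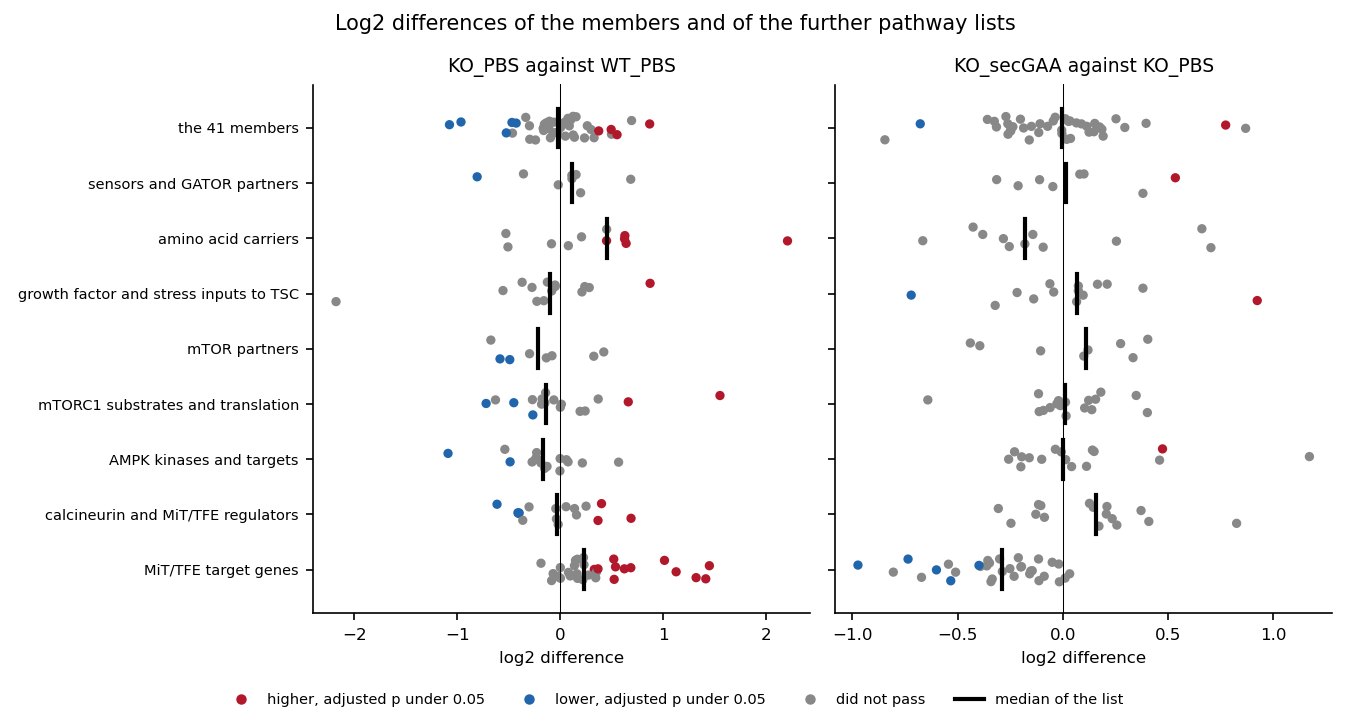
Log2 differences of the 41 members and of 8 further lists in KO_PBS against WT_PBS (left) and KO_secGAA against KO_PBS (right), with 1 point per gene and a black bar at each list's median. The MiT/TFE target genes have their median at 0.23 on the left and -0.29 on the right, and the members have theirs at -0.02 and -0.01.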

How the data were processed

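The deposited table gives, for 9 libraries and 13116 genes, a signal that the authors deposited as normalized counts, with 1 column per library. GRCm38, limma, edgeR, RSEM, cutadapt and CASAVA are named in the submitters' processing notes. The role of each, the versions and the strand setting of the counting are not given in the sources used. Whole reads were recovered from the deposited signal for 100% of 118044 values within 1e-06: a value is (reads + 0.5) over the library's total times its TMM factor, multiplied by 1e6, with a largest relative difference of 5.1e-15.

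Genes were kept where at least 3 libraries reached 1, which removed 27. limma 3.58.1 (R 4.3.3) was fitted to log2(value + 0.5) of all 9 libraries, with empirical Bayes moderation with a trend, 6 residual degrees of freedom, two-sided tests and Benjamini-Hochberg adjustment over 13089 genes. Every adjusted p comes from it unless another tool is named, and a gene is said to rise or fall at an adjusted p under 0.05. Log2 differences understate changes of genes with low levels. The recovered reads were tested with edgeR 4.0.16 (2845, 445 and 503 genes called for KO_PBS over WT_PBS, KO_secGAA over KO_PBS and KO_secGAA over WT_PBS), limma voom and DESeq2 1.42.0. edgeR had been planned for raw counts, which this table does not hold. Mice are numbered in the order of their records.

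The members and lists were chosen with earlier results of these data known. Named are all members, with full values where called in any comparison, Gaa, and up to 4 called genes of each further list by smallest p in KO_PBS against WT_PBS. Prkag2, Ddit4l, Hdac5, Acacb, Akt2 and Eif4ebp2 are named outside this rule, as are genes listed only to say which members of a list a count holds. Gene coordinates and exon lengths are those of GENCODE M21 (GRCm38), and promoter sequences those of RefSeq (GRCm38.p6). Lamtor3, Seh1l and Wdr24 had no promoter entry. Tfec was not analysed here.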

Additional observations from a re-analysis of the deposited data

How the results depend on the processing

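The 18 alternatives were 2 other pseudocounts, no filter, no scaling factors, quantile normalization, edgeR, DESeq2, limma voom, a fit of only the 2 groups compared and the omission of each library. Without scaling factors, 18 members were higher and 1 lower in KO_PBS than in WT_PBS, 0 and 7 in KO_secGAA against KO_PBS, and 2 and 0 in KO_secGAA against WT_PBS, with 4984, 959 and 1007 genes called in all (2867, 481 and 487 with the factors). Those totals are 38.1%, 7.33% and 7.69% of all genes, against 21.9%, 3.67% and 3.72% with the factors. The alternative itself moves the median of all genes. With DESeq2, 2 members were higher and 3 lower in KO_secGAA than in KO_PBS (798 genes called in all, 6.1%), and 1 was higher in KO_secGAA than in WT_PBS (1022 genes, 7.81%). Quantile normalization gave 0 higher and 2 lower in KO_secGAA against KO_PBS (4.15% of all genes called), and the fit of those 2 groups alone called 316 genes. The cause of these last 3 was not tested. Leaving out 1 library each gave 3 to 5 members higher, 2 to 6 lower and 1744 to 2847 genes called in KO_PBS against WT_PBS. It gave 0 to 1 higher, 0 to 1 lower and 159 to 568 genes in KO_secGAA against KO_PBS, and 0 higher, 0 to 2 lower and 94 to 503 genes in KO_secGAA against WT_PBS, where each fit has fewer samples. The genes called fell by over 1.5 times in KO_PBS against WT_PBS without KO_PBS mouse 2 (1844) or WT_PBS mouse 3 (1744). In KO_secGAA against KO_PBS they did so without any of those 6 mice (159 to 302) or WT_PBS mouse 3 (260.0), and in KO_secGAA against WT_PBS without KO_secGAA mouse 1 (181) or 2 (143) or WT_PBS mouse 2 (209) or 3 (94). Among the 10 members called in at least 1 comparison, whose differences were followed singly, those that changed sign, none of them called in that comparison, were Rragd in KO_PBS against WT_PBS (0.15 without scaling factors), Tfeb in KO_secGAA against KO_PBS (-0.14 without scaling factors, -0.03 to 0.054 without 1 library, the lowest without KO_PBS mouse 3) and Prkag3 in KO_secGAA against WT_PBS (0.068 without scaling factors, -0.195 to 0.10 without 1 library, the highest without KO_secGAA mouse 2). The members' median moved beyond the spread only without scaling factors (0.29, -0.16 and 0.07 in the 3 comparisons). No paired analysis was possible because the labels give no number shared between groups. Precision was limited by 3 mice per group and, for Rragb, by 18 to 49 reads per library.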

Other observations

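The members differed in how evenly the mice of a group expressed them. The median coefficient of variation over the 41 was 8.98% in KO_secGAA, 11.9% in KO_PBS and 7.68% in WT_PBS. In KO_PBS the most uneven members were Fnip2 (40.9%), Prkag3 (39.8%) and Flcn (34.1%), and for each of them KO_PBS mouse 1 was at an end of its group, highest for Fnip2 and Flcn and lowest for Prkag3. The same mouse had the highest sum of slow fibre markers of the 9, at 2622 normalized counts, against 816.7 and 624.9 in the other KO_PBS mice. In KO_secGAA the most uneven member was Flcn (35.7%), with mouse 3 at 94.6 normalized counts, and that mouse had the highest slow fibre sum of its group (1126, against 587.7 and 322). Fnip2 was also highest in that mouse (6.88), but Prkag3 was lowest in KO_secGAA mouse 2 (98.7), whose slow fibre sum was lowest. WT_PBS mouse 2 had the highest slow fibre sum (539.5), the highest Fnip2 (6.57) and the lowest Prkag3 (123.6) of its group. Flcn was highest in WT_PBS mouse 3 (65.4). No test was made of these values.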
